A study of Mus musculus and Rattus norvegicus with 24 samples.

Results

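The genes described here code for the factors that start translation and lengthen the protein chain, taken as every listed gene whose symbol begins with Eif or Eef and a digit. They number 58 of 9595 listed genes. By symbol alone, 48 (Eif) are called initiation and 10 (Eef) elongation genes, which takes in some enzymes and partners of the factors. Their counts were read in 24 cells that the labels give as single cardiomyocytes, 8 cells in each of 3 groups. Transplanted cells came from mouse embryonic stem cells of the genotype mESC Isl1-Cre; Rosa-RFP; aMHC-GFP and had lived for 30 days in a neonatal rat heart. Adult cells were wild-type (WT) cells from the ventricles of adult rats. Cultured cells had the same stem cell genotype as the transplanted ones and were kept for 30 days in vitro. Both mouse groups carry all 3 alleles, the Isl1-Cre driver and the Rosa-RFP and aMHC-GFP reporters, and aMHC is the promoter of the cardiomyocyte gene Myh6, which here drives GFP. The labels name no animal, graft or dish, so each group counts as 1 sample, no test between groups could be made, and cells were not used as replicates. Rat cells were counted on the mouse genome, so a difference between species and a difference in level cannot be told apart wherever adult cells are compared.

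Translation starts when eIF2, loaded with GTP and the initiator tRNA, joins the small ribosomal subunit with eIF1, eIF1A, eIF3 and eIF5. The cap-binding complex eIF4F, made of the cap-binding protein eIF4E, the scaffold eIF4G and the helicase eIF4A, brings in the mRNA, and eIF5B then joins the large subunit. During elongation eEF1A delivers each aminoacyl-tRNA, the eEF1B complex reloads eEF1A with GTP, and eEF2 moves the ribosome along by a codon. Eef1a1 is the eEF1A gene of most tissues, and Eef1a2 is the one known to take its place in mature skeletal muscle, heart and neurons.

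Total counts ran from 88796 to 344224 in transplanted, from 108546 to 223744 in adult and from 16099 to 60789 in cultured cells. Of the 58 genes, 57 had a count in some cell, 52 had at least 10 counts over all cells, and Eif4ebp3 had none. The 8 cultured cells fell into sets by measures other than the translation factors. A list of 10 cardiomyocyte markers, which include Myh6, Tnnt2 and Ttn, took from 13.2% to 20.7% of counts in transplanted cells and from 13.4% to 19.3% in adult cells. In cultured cells B, C, D and E it took from 4.75% to 17.5%, with Tnni3 and Myl2 at 0, and in cultured cell A it took 1.72%. Cultured cells F, G and H went against their label, since these markers took from 0% to 0.319% of their counts and 7 of the 10 (Tnnt2, Myh6, Myh7, Ttn, Tnni3, Myl2 and Ryr2) were at 0. Of 8 fibroblast markers, 3 had a count in cells F, G and H and took from 0% to 0.209% of counts, with Col1a2, Col3a1, Dcn, Lum and Postn at 0. All 4 endothelial markers were at 0 there. Of the pluripotent cell markers, Nanog and Sox2 were listed, and both had a count in cells F, G and H, where they took from 0% to 0.135% of counts. Both were at 0 in cultured B to E. Nanog was also at 0 in transplanted and adult cells, where Sox2 alone took up to 0.0372% and up to 0.762% of counts. Rpph1, the RNA of ribonuclease P, took from 2.51% to 5.48% of counts in cultured cells B to E, from 0.0202% to 0.0574% in cultured cells A, F, G and H, and at most 0.00179% elsewhere. Results against cultured cells are therefore given over all 8 cells and also without F, G and H (5 cells left) or without B, C, D and E (4 cells left).

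The sequences around the start sites of 4 of these genes are shown because Eef1a1 was the only factor gene whose transplanted and cultured cells did not overlap, Eef1a2 is its muscle counterpart, and Eef1a1 shares a short motif with Eef2 and Eif1. Each run is 60 bases of mouse genome (RefSeq start sites on GRCm38.p6), 30 on each side of the start, read along the gene's strand. Capitals mark the letters TATAA.
Eef1a2, chr2:181156986-181157045, minus strand: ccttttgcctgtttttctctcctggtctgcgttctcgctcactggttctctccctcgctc
Eef1a1, chr9:78481695-78481754, minus strand: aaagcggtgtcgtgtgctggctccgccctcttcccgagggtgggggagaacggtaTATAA
Eef2, chr10:81176601-81176660, plus strand: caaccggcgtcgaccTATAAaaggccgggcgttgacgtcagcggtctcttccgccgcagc
Eif1, chr11:100319919-100319978, plus strand: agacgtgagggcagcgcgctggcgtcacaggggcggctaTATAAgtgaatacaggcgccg

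The motif begins at base 26 in Eef1a1, base -15 in Eef2 and base 10 in Eif1, where the annotated start is the first base and no base is numbered 0. Of the 58 genes, 46 had windows in the RefSeq table, 61 windows in all, and 3 of the 61 (4.92%) held TATAA on the gene's strand, beside 1383 of 32851 windows of all genes (4.21%). On the opposite strand it was in 0 of the 61 and in 2.61% of all windows. The window of Eef1a2 does not hold these letters. A match is only a match of letters, and nothing about a bound factor follows from it.

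Translation factor genes took a larger share of counts in cultured cells than in the other groups. The share was 0.404% (exact Clopper-Pearson 95% interval 0.393% to 0.415%) in the transplanted sum, 0.339% (0.329% to 0.349%) in the adult sum and 0.934% (0.893% to 0.976%) in the cultured sum. Intervals here and below cover counting error only, since counts are reads of amplified cDNA and not molecules. By cell, the share had its lowest, median and highest value at 0.0856%, 0.363% and 0.643% in transplanted cells. The same 3 values were 0.0871%, 0.376% and 0.550% in adult cells, and 0.118%, 0.845% and 2.09% in cultured cells. The high values were those of cultured cells A, F, G and H, from 1.23% to 2.09%, each above every transplanted and adult cell. Cultured cells B, C, D and E, from 0.118% to 0.459%, lay within the range of the transplanted cells. Without F, G and H the cultured share was 0.493% (0.457% to 0.531%), and without B, C, D and E it was 1.74% (1.65% to 1.83%). Cells F, G and H are those without most cardiomyocyte markers, B to E are those with high Rpph1, and the part of either in the result was not tested.

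**Figure D1:**
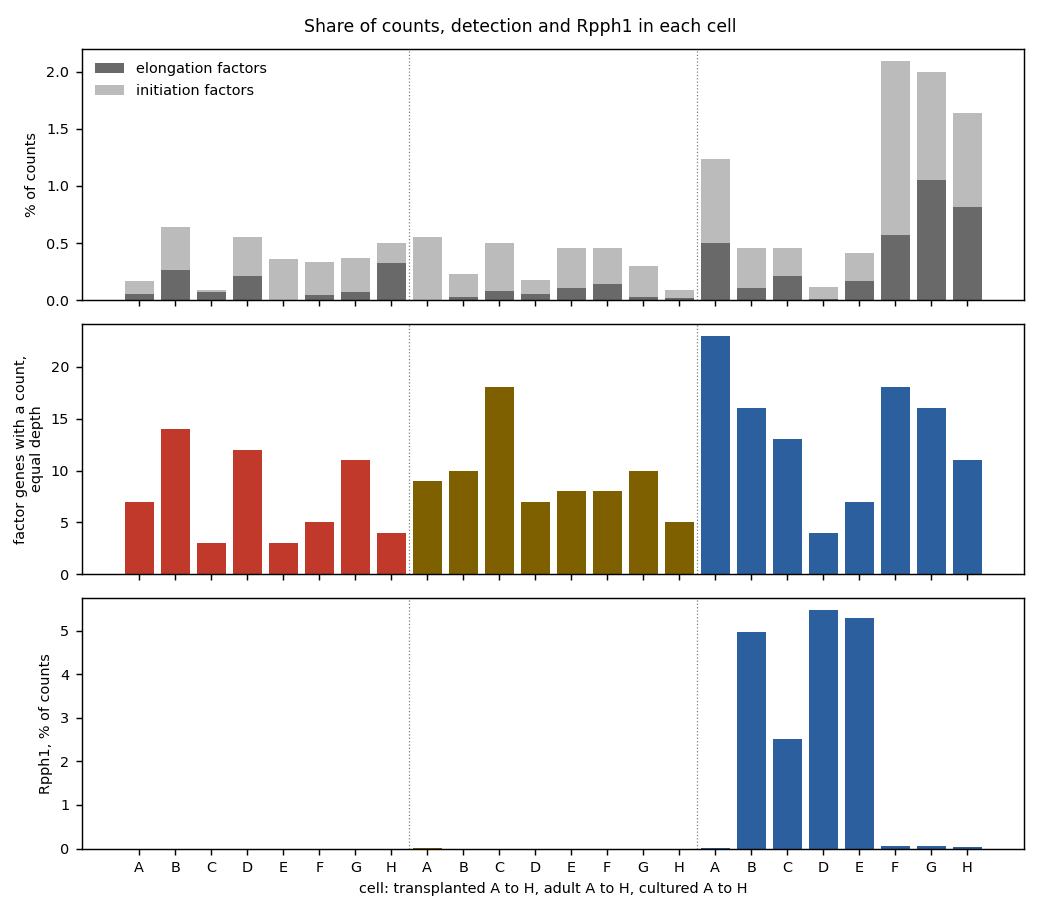
Each bar is 1 cell, A to H in each group: the top panel stacks the percent of a cell's counts in elongation (dark) and initiation (light) factor genes, the middle panel gives the number of factor genes with a count after all cells were thinned to 16099 counts, and the bottom panel the percent of counts in Rpph1. Cultured cells A, F, G and H stand high in the top panel (1.23% to 2.09% for all factor genes) and low in the bottom one.

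Genes with an Eif symbol made up 0.245% of counts in transplanted, 0.289% in adult and 0.562% in cultured sums. Those with an Eef symbol made up 0.159%, 0.0502% and 0.372% of the same sums. Of the 2076 transplanted Eef counts, 806 were from the methyltransferase gene Eef1akmt1. Another 506 were from Eef1e1, whose protein belongs to the aminoacyl-tRNA synthetase complex. In adult cells 145 of 638 Eef counts were from Eef1akmt1 and 0 from Eef1e1, and in cultured cells neither gene had a count. Ribosomal protein genes, 76 in number, took 0.810% of transplanted, 0.835% of adult and 1.60% of cultured summed counts. That higher cultured sum came from cells A, F, G and H, which had 2.38% to 4.82%. Cultured B, C, D and E had 0.0724% to 0.175%, below every transplanted cell (0.537% or more) and adult cell (0.642% or more). More of the factor genes were also seen per cultured cell. After every cell was thinned to 16099 counts, a median of 6 of the 58 genes (range 3 to 14) had a count in transplanted cells, 8.5 (5 to 18) in adult cells and 14.5 (4 to 23) in cultured cells. Unthinned, the medians were 8.5, 10 and 15.5 genes. All listed genes went the same way, with thinned medians of 603.5 genes in transplanted, 688 in adult and 1461.5 in cultured cells.

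Gene by gene, more factor genes were called lower than higher in both heart groups relative to cultured cells, as were the listed genes at large. A level is given in CPM, counts per 1000000 counts of listed genes in a cell or in a group's sum. A gene with at least 10 counts over both groups was called higher or lower when its CPM differed by more than 2-fold, where a group near 0 was set to a floor of 3 counts. That floor was 14.6 CPM in cultured, 2.30 CPM in transplanted and 2.36 CPM in adult cells, so lower calls needed fewer counts. In adult against cultured cells, Eif2b1 (24 against 0 counts) met neither call, while Eif1b (0 against 17) was called lower. How much of the excess of lower calls came from this was not tested. In transplanted against cultured cells, 48 factor genes were measured, of which 10 were higher (20.8%, beside 21.8% of all genes) and 25 lower (52.1%, beside 64.0% of all genes). Their median log2 ratio, with 1 CPM added, was -1.07, against -5.63 over all 4958 measured genes. In adult against cultured cells, 48 were measured, with 12 higher (25.0%, beside 21.8%) and 25 lower (52.1%, beside 62.1%), and the median was -1.17 against -3.85. Both comparisons use the same cultured cells. The all-gene medians moved with the settings. For transplanted and adult over cultured cells they were -4.98 and -4.66 at a minimum of 5 counts, and -2.49 and -1.93 at 20 counts. With 0.5 CPM added they were -5.88 and -3.94, and with 5 CPM added -3.54 and -3.32. The size of the gap between factor genes and all genes is therefore not read. The shares of factor genes called lower were below the shares of all genes.

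Those counts rested on the cultured cells that were kept. Without cultured F, G and H, 12 of 42 measured genes were higher (28.6%, beside 25.6%) and 15 lower (35.7%, beside 56.2%) in transplanted cells, and the median turned to 0.084, against -2.91 over all genes. In adult cells without F, G and H, 13 of 43 were higher (30.2%, beside 24.1%) and 16 lower (37.2%, beside 54.1%), and the median turned to 0.97, against -1.95. Without cultured B, C, D and E, 5 of 42 were higher (11.9%, beside 22.5%) and 20 lower (47.6%, beside 49.5%) in transplanted cells, with a median of -0.93 against -0.92. Without the same cells, 6 of 44 were higher (13.6%, beside 22.0%) and 21 lower (47.7%, beside 47.3%) in adult cells, with a median of -0.95 against -0.49. Scaling by TMM factors in place of totals moved every ratio to cultured cells up by 0.92 on the log2 scale. It gave 16 higher (33.3%, beside 28.4% of all genes) and 21 lower (43.8%, beside 60.4%) factor genes in transplanted cells, and 17 higher (35.4%, beside 29.8%) and 21 lower (43.8%, beside 57.8%) in adult cells.

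Few calls outlasted the removal of each cell in turn. Against cultured cells, 1 gene stayed higher (Eef1akmt1, beside 8.73% of all genes) and 10 stayed lower (20.8%, beside 21.0%) in transplanted cells without any 1 cell. In adult cells none of the 12 stayed higher (beside 8.94% of all genes) and 11 stayed lower (22.9%, beside 20.1%). With the removal of each cultured set added, 1 gene stayed higher in transplanted cells, Eef1akmt1 (2.08%, beside 7.89%), and 6 stayed lower, Eef1a1, Eif2a, Eif3a, Eif3f, Eif4g3 and Eif5 (12.5%, beside 12.6%). For adult cells 0 stayed higher (beside 8.01%) and 8 stayed lower, Eef1a1, Eef1b2, Eef2, Eif2a, Eif3a, Eif4g2, Eif4g3 and Eif5 (16.7%, beside 12.3%). The shares of lower genes lie near those of all genes, and nothing particular to the translation factors is read from their number.

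Of the eEF1A genes, Eef1a1 was absent from the counts of transplanted cells and present in every cultured cell, while Eef1a2 was seen in a few transplanted and adult cells and in no cultured one. Eef1a1 (ENSMUSG00000037742, chromosome 9, 78478449 to 78489151, minus strand) had 0 counts in all 8 transplanted cells. It had counts in 1 of 8 adult cells, F, with 127 counts or 1170 CPM in that cell. All 8 cultured cells had it, and their lowest, median and highest levels were 35.9, 1664 and 7536 CPM. The transplanted and cultured groups did not overlap, while the adult group did overlap with the cultured one through cell F. Over sums, Eef1a1 had 0 CPM in transplanted cells, 99.9 CPM (83.3 to 119) in adult cells and 2318 CPM (2115 to 2536) in cultured cells. That put it at least 1007-fold lower in transplanted than in cultured cells, against a floor of 3 counts over the group. The adult to cultured ratio was 0.0431 (exact 95% counting interval 0.0351 to 0.0525), and without adult cell F it was 0.00111.

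Within the cultured group, Eef1a1 was highest in cells A, F, G and H, from 2544 to 7536 CPM, and stood at 35.9 to 785 CPM in cells B to E. Over the 5 cultured cells without F, G and H it had 822 CPM, in 5 of 5 cells, and was at least 357-fold lower in transplanted cells, with an adult to cultured ratio of 0.122 (0.0937 to 0.158). Over the 4 cultured cells without B, C, D and E it had 5022 CPM and was at least 2181-fold lower in transplanted cells. In adult cells the ratio was then 0.0199 (0.0162 to 0.0243). Among the 4958 genes with at least 10 counts in transplanted and cultured cells, 3 (0.0605%) had counts in 8 of 8 cultured and in 0 of 8 transplanted cells. The other 2 were H19, a long noncoding RNA of fetal tissue, and Rpph1. This pattern was looked for after the values of Eef1a1 were seen, and 11 genes in all had counts in 8 of 8 cultured cells. Eef1a1 has many processed pseudogenes, and how reads shared with them were placed is not given in the sources used here.

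Eef1a2 (ENSMUSG00000016349, chromosome 2, 181147653 to 181157014, minus strand) had counts in 2 transplanted cells, B with 137 CPM and D with 160 CPM. It had counts in 3 adult cells, C with 55.5, D with 358 and G with 11.6 CPM, and in 0 of 8 cultured cells. All 3 groups had a median of 0 CPM, so their cells overlapped. Its sums were 32.2 CPM (23.2 to 43.6) in transplanted cells, 51.1 CPM (39.5 to 65.2) in adult cells and 0 CPM, with an upper limit of 17.9 CPM, in cultured cells. Against the cultured floor of 3 counts it was at least 2.22-fold higher in transplanted cells and at least 3.51-fold higher in adult cells. Both calls rested on single cells: without transplanted B or D the ratio to the floor was 1.46 or 1.02, and without adult D it was 0.615. The transplanted call also ended without cultured B, D, G or H, since fewer counts raise the floor. Without cultured F, G and H the bounds were 1.52-fold in transplanted and 2.41-fold in adult cells, and without cultured B, C, D and E the ratios to the floor were 0.912 and 1.45.

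No cell had counts of both genes. Eef1a2 gave 100% of the 42 eEF1A counts in transplanted cells (Clopper-Pearson 91.6% to 100%) and 33.9% of the 192 in adult cells (27.2% to 41.0%). In cultured cells it gave 0 of the 478, with a Clopper-Pearson upper limit of 0.769%. Neither gene had a count in 6 transplanted, 4 adult and 0 cultured cells. Depth was at least 88796 counts in each of those transplanted cells and at most 60789 in any cultured cell. Depth alone does not settle whether a gene could be detected. At equal depth a median of 603.5 listed genes had a count in transplanted and 1461.5 in cultured cells. Why both genes lacked counts in those transplanted cells was not tested.

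**Figure D2:**
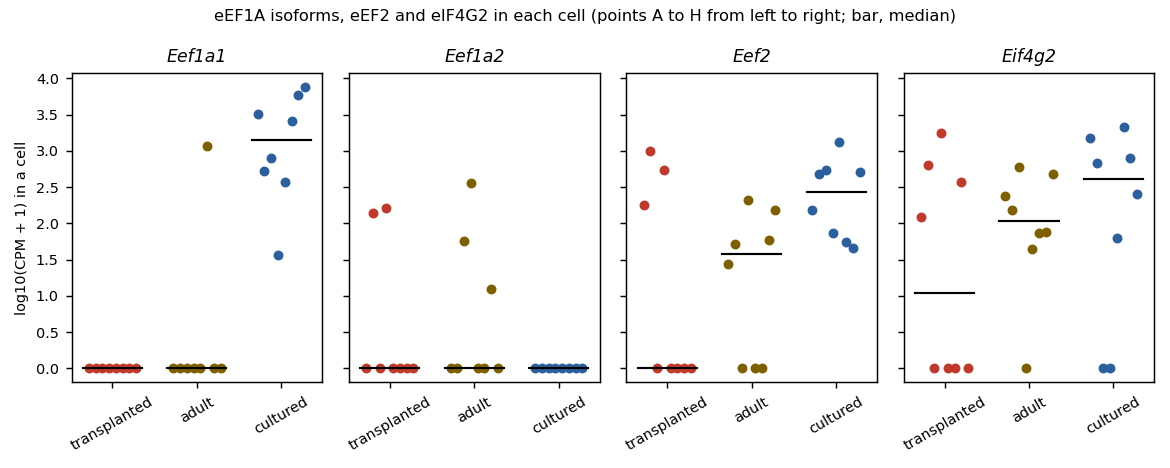
Levels of Eef1a1, Eef1a2, Eef2 and Eif4g2 in each of the 24 cells on a log10(CPM + 1) scale, with cells A to H from left to right within a group and a bar at the group's median. Eef1a1 is above 0 in 0 transplanted, 1 adult and 8 cultured cells, and Eef1a2 in 2, 3 and 0 cells.

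Eef2, the translocase, was the other factor gene seen in every cultured cell. In transplanted cells it was found in 3 of 8 (A with 176, B with 998 and D with 543 CPM) and was 0 in the rest. Adult cells had a lowest, median and highest level of 0, 38.8 and 208 CPM, and cultured cells of 44.1, 314 and 1304 CPM. The ranges overlapped, with cultured cell E the highest of all 24. The ratio of sums was 0.475 (0.366 to 0.622) for transplanted over cultured cells and 0.179 (0.130 to 0.246) for adult over cultured cells. The transplanted call ended without transplanted C, E, F, G or H or cultured B or E. The ratio was 0.247 without transplanted B and 0.896 (0.548 to 1.56) without cultured B, C, D and E. In adult cells it was called lower without any 1 cell and without each cultured set. Of the 2 genes for enzymes that modify eEF2, its kinase Eef2k had 8 counts, all in cultured cell C. The methyltransferase gene Eef2kmt had 18 counts in 2 cultured cells, 13 of them in G, and none in the other groups; without G it had too few counts for a call.

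The eEF1B complex was uneven. Eef1b2, the exchange subunit, was seen in transplanted B (1264 CPM) and G (130 CPM), in adult C, G and H (56.8 to 236 CPM) and in cultured A, F and G (1514, 3085 and 2515 CPM). Those 3 cultured cells lay above all other cells that had the gene. Its ratio was 0.187 (0.149 to 0.235) for transplanted over cultured and 0.0743 (0.0547 to 0.100) for adult over cultured cells. Without transplanted B the first ratio was 0.0158 and without cultured F it was 0.281. The second was 0.0406 without adult C and 0.112 without cultured F. Over cultured A to E alone the transplanted ratio was 0.614 (0.415 to 0.938), which is no longer past 2-fold.

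Eef1d, the other exchange subunit, behaved unlike Eef1b2. It had counts in 5 transplanted cells, from 313 to 519 CPM, in 4 adult cells, from 4.73 to 458 CPM, and in 2 cultured cells, B with 49.3 and G with 1368 CPM. The transplanted to cultured ratio of sums was 1.19 (0.831 to 1.76) and met neither call, and without cultured G it would be called higher. For adult over cultured cells it was 0.491 (0.330 to 0.747), a call that ended without adult A, D, E, F, G or H or cultured G, with 0.199 without adult C and 4.96 without cultured G. Exons of Eef1d overlap those of the listed gene Naprt on the same strand over 277 bases. The scaffold subunit gene Eef1g had 62, 46 and 6 counts in transplanted, adult and cultured cells and met neither call in any comparison. Eef1e1, which codes for a protein of the aminoacyl-tRNA synthetase complex, had 506 counts, all in transplanted cell H (1470 CPM), and every call on it rested on that cell.

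Eef1akmt1 codes for a lysine methyltransferase of eEF1A and was the factor gene with the highest bound above cultured cells. It had 34, 157 and 615 counts in transplanted cells B, D and H (274, 1004 and 1787 CPM), 145 counts in adult cell E (1035 CPM) and 0 in all cultured cells. Cells without it outnumber those with it in every group, so the groups overlap at 0. Against the cultured floor it was at least 42.5-fold higher in transplanted and at least 7.84-fold higher in adult cells. Without transplanted H the first bound was 13.7-fold, and without adult E the gene was at 0 in adult cells too. With cultured F, G and H left out the bounds were 29.1-fold in transplanted and 5.37-fold in adult cells, and with cultured B, C, D and E left out they were 17.5-fold and 3.22-fold.

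Most components of eIF4F and its helper proteins, like most listed genes, were lower in both heart groups. Of the 8, 7 (87.5%) were lower and 0 higher in transplanted than in cultured cells, and 6 (75.0%) were lower and 1 (Eif4e) higher in adult than in cultured cells, where 64.0% and 62.1% of all genes were lower. The median log2 ratios of the 8 were -5.76 and -1.81, against -5.63 and -3.85 over all genes. Without cultured F, G and H, Eif4a1, Eif4g1 and Eif4g3 were lower in transplanted cells, the same genes and Eif4g2 were lower in adult cells, and Eif4h had 2 cultured counts. Without cultured B, C, D and E, Eif4a2, Eif4g2, Eif4g3 and Eif4h were lower in both.

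Eif4g2, a relative of the eIF4G scaffold that works without the cap-binding protein, had the most counts of the role. Its lowest, median and highest levels were 0, 59.9 and 1758 CPM in transplanted cells, 0, 114 and 603 CPM in adult cells and 0, 463 and 2111 CPM in cultured cells. Transplanted D and cultured A and F were the highest 3 cells, and the groups overlapped. The ratio to cultured cells was 0.478 (0.393 to 0.585) for transplanted and 0.346 (0.281 to 0.428) for adult cells. The transplanted call ended without transplanted A, C, E, F or H or cultured A or F. For transplanted cells the ratio was 0.177 without cell D and 0.614 (0.477 to 0.800) without cultured F, G and H. Exons of a small nucleolar RNA lie in this gene on the same strand.

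Of the 2 helicase genes, Eif4a1 had 1 count in transplanted, 1 in adult and 25 in cultured cells A, B, D and F. Its ratio was 0.00633 (0.000154 to 0.0387) for transplanted and 0.00649 (0.000158 to 0.0396) for adult over cultured cells. Without cultured D, and with the heart groups at their floors, these were 0.0373 and 0.0382. Eif4a2 was seen in transplanted D, F and G (69.9 to 786 CPM), in adult B, C and G (127 to 413 CPM) and in cultured A, C, E, G and H (249 to 1591 CPM). Its ratios were 0.257 (0.195 to 0.341) and 0.233 (0.175 to 0.311). Without transplanted F the first was 0.0400, without adult G the second was 0.113, and without cultured H they were 0.411 and 0.372. Reads that the 2 helicases share could be placed on either, and Eif4a2 holds exons of several small nucleolar RNAs.

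The scaffold gene Eif4g3 and the helicase cofactor gene Eif4h had no count in any transplanted or adult cell. Eif4g3 had 27 counts in cultured B, E and G and was at least 56.9-fold lower in transplanted and 55.5-fold lower in adult cells. Eif4h had 69 counts in cultured A, F and G and was at least 145-fold and 142-fold lower. Without cultured G the bound for Eif4h stood at a ratio of 0.0176 in transplanted and 0.0180 in adult cells, and without cultured B that for Eif4g3 at 0.0304 and 0.0312. Eif4e, the cap-binding protein and the limiting part of eIF4F in many cells, went the other way. Its counts were 11 in transplanted, 52 in adult and 0 in cultured cells. In adult cells it was at least 2.81-fold above the cultured floor, a call that ended without adult B (1.55), adult C (1.65) or cultured B. Eif4g1, the main scaffold, had 0 counts in transplanted cells, 24 in adult D and 10 in cultured B and C. It was at least 21.1-fold lower in transplanted cells, a call that ended without cultured B or C. Its adult to cultured ratio of 0.389 (0.179 to 0.912) was 0.0553 without adult D and 1.19 without cultured C. Eif4b had 0, 78 and 12 counts in transplanted, adult and cultured cells, and its transplanted call ended without cultured C or H.

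The eIF3 complex, the large scaffold on the small subunit, was mixed. Of its 12 listed subunit genes, 10 were measured in transplanted against cultured cells, with 3 higher (Eif3b, Eif3g and Eif3k, 30.0% beside 21.8% of all genes) and 5 lower (Eif3a, Eif3e, Eif3f, Eif3h and Eif3l, 50% beside 64.0%). In adult against cultured cells 11 were measured, with 3 higher (Eif3c, Eif3g and Eif3h, 27.3% beside 21.8%) and 4 lower (Eif3a, Eif3e, Eif3f and Eif3l, 36.4% beside 62.1%). Eif3a, the core subunit, was the steadiest of these. It had 1 count in transplanted cell B, 59 and 14 counts in adult cells A and C, and 9, 14 and 16 counts in cultured cells A, C and H. Its ratio to cultured cells was 0.00406 (0.000100 to 0.0240) for transplanted and 0.304 (0.203 to 0.460) for adult cells, and 0.0706 for adult cells without cell A.

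Other subunits turned on which cells were summed. Eif3k had 524 of its 632 transplanted counts in cell E, 228 of its 356 adult counts in cell G and 42 of its 46 cultured counts in cell F. Its transplanted to cultured ratio was 2.17 (1.61 to 3.00), 0.437 without transplanted E and 22.8 without cultured F, and the call also ended without transplanted B or cultured A, B, C, D or H. Eif3h had 106 counts in transplanted D alone, 807 in adult cells (2203 CPM in A and 1684 CPM in E) and 50 in cultured A, G and H. The ratio was 0.335 (0.238 to 0.479) for transplanted and 2.62 (1.97 to 3.56) for adult over cultured cells. It was 0.0108 for transplanted cells without cell D, 0.829 without cultured G and 11.5 (2.02 to 458) without cultured F, G and H. For adult cells it was 1.24 without cell A and 6.47 without cultured G, and the call also ended without cultured B.

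Eif3l, a subunit at the edge of the complex, changed direction with 1 cell. It had 207 counts in transplanted F, 0 in all adult cells, and 2, 100 and 3 counts in cultured A, F and H. The transplanted to cultured ratio was 0.312 (0.246 to 0.398), 0.00512 without transplanted F and 5.96 without cultured F. Adult cells were at least 216-fold lower, a bound that became a ratio of 0.0886 without cultured F. Eif3f was lower in both groups, with ratios of 0.0641 (0.0342 to 0.115) for transplanted and 0.197 (0.128 to 0.304) for adult cells. The transplanted value was 0.0343 without transplanted D and 0.218 without cultured G. The adult value was 0.0469 without adult A and 0.669 without cultured G. Eif3b, Eif3c, Eif3e and Eif3g were each called on a single cell: without transplanted G, Eif3b stood at 0.286, without transplanted D, Eif3g at 0.659, without cultured G, Eif3e at 0.869, and in adult cells Eif3c stood at 0.274 without adult C and Eif3g at 0.182 without adult E. In the values for Eif3b and Eif3g, a group with fewer than 3 counts was set to its floor.

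Genes for start site selection and the eIF2 ternary complex were split. Of 11 measured in transplanted against cultured cells, 2 were higher (Eif1ax and Eif2s1, 18.2% beside 21.8% of all genes) and 5 lower (Eif1a, Eif1b, Eif2s3y, Eif2a and Eif5, 45.5% beside 64.0%). Of 9 measured in adult against cultured cells, 4 were higher (Eif1, Eif1ax, Eif2s1 and Eif2s2, 44.4% beside 21.8%) and the same 5 were lower (55.6% beside 62.1%). Eif2a, which codes for an alternative carrier of the initiator tRNA, had 38 counts in 3 cultured cells and none elsewhere, which put it at least 80.0-fold lower in transplanted and 78.1-fold lower in adult cells. Without cultured A these ratios stood at 0.0238 and 0.0244. Eif5, the GTPase-activating protein of eIF2, had 12, 11 and 21 counts, and ratios of 0.0904 (0.0406 to 0.192) for transplanted and 0.0849 (0.0370 to 0.184) for adult over cultured cells. They were 0.0254 without transplanted A, 0.0263 without adult D, and 0.144 and 0.135 without cultured F.

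Eif1, the gatekeeper of start codon choice, was seen in 5 transplanted cells (up to 79.3 CPM), 7 adult cells (up to 1032 CPM) and 3 cultured cells (up to 101 CPM). In adult over cultured cells its ratio was 6.24 (2.39 to 23.2), which was 1.86 without adult F, the cell with 112 of its 154 counts. Eif2s1, the alpha subunit of eIF2 that stress kinases phosphorylate, had 514 counts in transplanted cell H alone, 2 and 70 in adult cells A and C and 4 in cultured cell B. Its ratios were 20.3 (7.89 to 74.9) and 2.92 (1.09 to 11.0), and these became 0.161 without transplanted H and 0.137 without adult C. Eif2s2, the beta subunit, had 6 adult cells with counts and a ratio of 3.04 (1.66 to 6.18) in adult over cultured cells, or 1.85 without adult F and 4.71 without cultured B. Eif1ax stood at 2.13 (0.992 to 5.43) in transplanted cells, with every one of its 94 counts in cell E, and at 4.33 (2.06 to 10.9) in adult cells. Without transplanted E the first was 0.0798, without adult A the second was 0.675, and without cultured A they were 4.48 and 9.14. The transplanted call also ended without cultured B, C, D, E, G or H.

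Eif1a and Eif1b were seen only in cultured cells. Eif1a had 65 of its 66 counts in cultured B, and Eif1b, a paralog of Eif1, had 16 of its 17 in cultured F. Eif2s3y, the Y-linked copy of the gamma subunit, had 0, 20 and 19 counts in transplanted, adult and cultured cells, with 15 of the cultured counts in cell E. Without that 1 cell the calls of each of these 3 genes ended, at 0.112, 0.144 and 0.109 for transplanted over cultured cells with the empty group at its floor, and for adult over cultured cells Eif2s3y was then at 0.747. Its X-linked copy Eif2s3x had 1, 0 and 4 counts, and reads shared by the 2 copies may be placed on either.

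The exchange factor eIF2B and the kinases that hold it in check were sparse. Of the 5 eIF2B genes, Eif2b3 had 108 counts in cultured cell H, 24 in adult cell C and 0 in transplanted cells. It was called lower in both heart groups, and without cultured H the ratios, with empty groups at their floor, were 0.140 and 1.15. Eif2b5, the catalytic subunit, had 89 counts over 4 transplanted cells (63 in G), 10 in adult G and 0 in cultured cells. It was at least 4.69-fold above the cultured floor in transplanted cells, a call that ended at 1.49 without transplanted G. The kinase Eif2ak4, which senses uncharged tRNA, had 23 counts, all in cultured F, and the haem-regulated kinase Eif2ak1 had 2, 13 and 0 counts in transplanted, adult and cultured cells. Eif2ak2 and Eif2ak3 are not among the listed genes, so their levels could not be read.

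Among the late factors, Eif5a was higher in both heart groups. It codes for a hypusine-carrying protein that helps ribosomes through difficult stretches. Counts were in transplanted A, D, F and G (12.8 to 581 CPM), in adult A, B, D and F (8.46 to 1569 CPM) and in cultured B alone (247 CPM). Its ratio to cultured cells was 2.15 (1.27 to 3.92) for transplanted and 4.91 (2.94 to 8.84) for adult cells. Those values were 1.39 without transplanted F, 1.35 without adult A, and 7.59 and 17.3 without cultured B. The transplanted call ended without transplanted A, F or G or any cultured cell but B. Its paralog Eif5a2 had 22 counts in cultured cell A and none elsewhere. Eif5b had 62 transplanted, 63 adult and 19 cultured counts and met neither call, with ratios of 0.516 (0.305 to 0.914) and 0.538 (0.318 to 0.951). Of the regulators of eIF4E, Eif4ebp1 had 26 transplanted, 76 adult and 2 cultured counts, with an adult to cultured ratio of 6.16 (1.65 to 51.8). With the cultured group at its floor that ratio was 4.11, and 1.55 without adult B. Eif4enif1 had 22 counts in 2 cultured cells only, 18 of them in E, and Eif4e2, a cap-binding relative of eIF4E, had 45 counts in transplanted B, 1 in adult C and 13 in cultured B.

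Counts of a factor gene usually came from a few cells. Among genes with at least 10 counts in a group, more than 50% of the counts came from a single cell in 29 of 32 factor genes in transplanted (90.6%, beside 82.1% of all genes), 31 of 36 in adult (86.1%, beside 80.4%) and 26 of 33 in cultured cells (78.8%, beside 84.5%). In transplanted cells 12 of the 32 were seen in 1 cell only (37.5%, beside 46.2% of all genes), in adult cells 7 of 36 (19.4%, beside 39.6%) and in cultured cells 5 of 33 (15.2%, beside 26.5%). No factor gene was seen in more than 5 transplanted or 7 adult cells, while Eef1a1 and Eef2 were seen in 8 cultured cells.

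**Figure D3:**
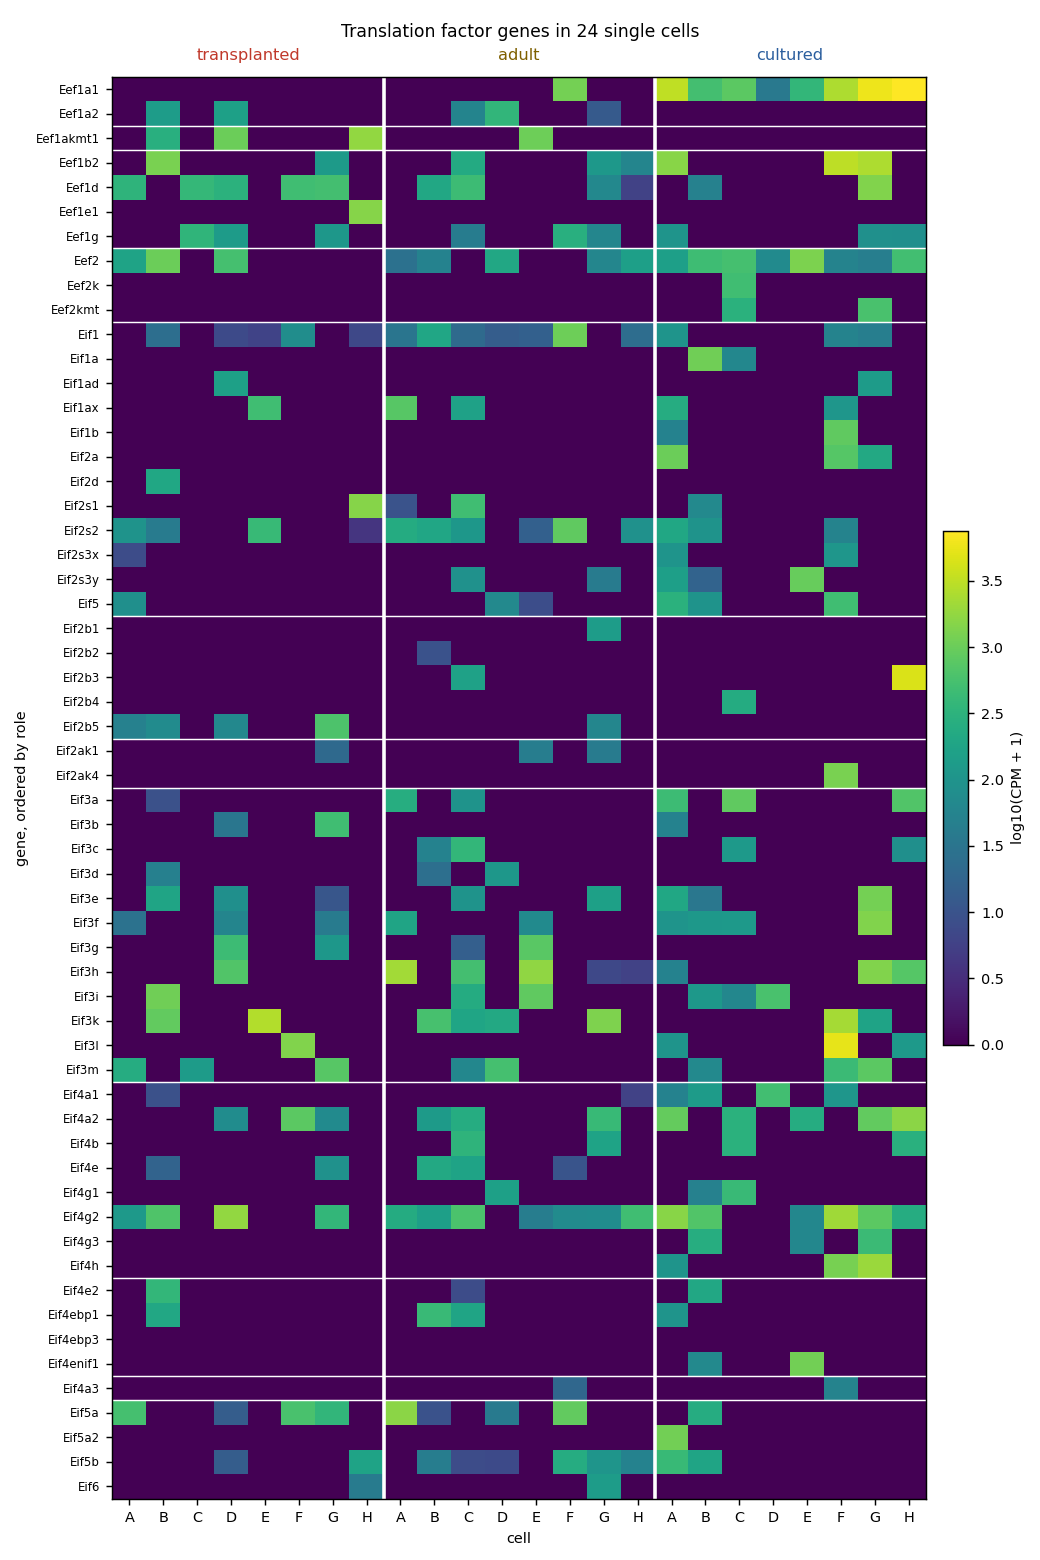
Levels of all 58 factor genes (rows, grouped by role) in the 24 cells (columns, transplanted, adult and cultured, A to H in each) as log10(CPM + 1). Most rows are filled in a few cells of a group, and the Eef1a1 row is filled in all 8 cultured cells and in adult cell F.

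Levels of different genes were compared per length, as counts per kilobase of exon, scaled to the same sum over listed genes in each group (per-length units below). By that measure Eef1akmt1 (1100), Eif3k (303) and Eef1e1 (201) led the factor genes in transplanted cells. In adult cells Eif3h (662), Eif5a (253) and Eef1akmt1 (203) led, and in cultured cells Eef1a1 (2746), Eef1b2 (815) and Eif3h (444). The leading gene of a group was mostly the gene of a few cells, as 615 of the 806 transplanted counts of Eef1akmt1 came from cell H. Eef1a1 was the exception in the cultured group, with no cell above 37.7% of its counts.

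Between the transplanted and adult cells the differences were more even. Of 42 measured factor genes, 12 were higher (28.6%, beside 34.8% of all genes) and 18 lower (42.9%, beside 44.3%) in transplanted cells. The log2 ratios had a median of -0.35 for factor genes and -0.37 for all 3501 measured genes. Of the 8 elongation (Eef) genes, 5 were higher (62.5%) and 1 lower (12.5%), and of the 34 initiation (Eif) genes, 7 were higher (20.6%) and 17 lower (50%). Among those 5 were the methyltransferase gene Eef1akmt1 and the synthetase complex gene Eef1e1. None of the 5 higher elongation genes kept its call without any 1 cell. Eef2 had a ratio of 2.66 (2.07 to 3.44) for transplanted over adult cells, a call that ended without transplanted B (1.38) or D. Eef1d had 2.43 (1.92 to 3.08), which was 5.99 without adult C, and the call ended without transplanted F or adult A. Eef1b2 had 2.51 (1.88 to 3.39), 0.212 without transplanted B and 4.60 without adult C. Without any 1 cell, Eif2b5 stayed higher (2.38%, beside 5.68% of all genes) and 5 genes stayed lower, Eif1, Eif3a, Eif3h, Eif4b and Eif4e (11.9%, beside 9.63%).

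Several genes were higher through 1 transplanted cell. Eif1ad and Eif2d fell to ratios of 1.11 and 1.08 to the adult floor without transplanted D and B, and Eif4e2, Eif3l and Eef1e1 to 1.08, 1.10 and 1.33 without transplanted B, F and H. Eif2s1 had a ratio of 6.97 (5.44 to 9.05), 0.0553 without transplanted H and 148 without adult C. Eif1ax, at 0.491 (0.379 to 0.632), was 3.15 without adult A, and Eif5a, at 0.439 (0.370 to 0.518), was 1.59 without adult A. Eef1akmt1 had a ratio of 5.42 (4.54 to 6.52), 1.75 without transplanted H and 233 without adult E.

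Of the genes whose call held without any 1 cell, Eif2b5 had a ratio of 8.69 (4.51 to 18.7), with 4 transplanted cells against 1 adult cell, and 2.75 without transplanted G and 25.0 without adult G. Eif1 stood at 0.120 (0.0706 to 0.195), and at 0.0502 without transplanted F and 0.404 without adult F. Eif3h stood at 0.128 (0.104 to 0.157), and at 0.00412 without transplanted D and 0.272 without adult A. Eif4b, which stimulates the helicase, had 0 counts in transplanted cells and 78 counts in adult cells, and was at least 26.6-fold lower, or 0.0865 as a ratio without adult C. Eif3a, with 1 transplanted and 73 adult counts, was at 0.0134 (0.000334 to 0.0769), or 0.172 without adult A with the transplanted group at its floor. Eif4e was at 0.206 (0.0971 to 0.401), with 0.0610 without transplanted G, 0.374 without adult B and 0.352 without adult C. The species differ in this comparison, so it cannot be told apart from a difference in how rat reads matched mouse genes.

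Other genes of translation were taken from lists of 54 genes in 6 groups, and at most 2 called genes of each are named. Their counts are read beside the shares of all genes given above, 21.8% higher in either comparison, and 64.0% lower in transplanted and 62.1% lower in adult against cultured cells. Of genes for poly(A) binding and control of eIF4F, 0 were higher and 5 of 7 measured (71.4%) lower in transplanted against cultured cells, and 0 were higher and 5 of 8 (62.5%) lower in adult against cultured cells, which is near the background. Pabpc1, the main cytoplasmic poly(A)-binding protein, had 3 counts (2.30 CPM) in transplanted, 0 in adult and 140 (679 CPM) in cultured cells. Its transplanted to cultured ratio was 0.00339 (0.000691 to 0.0101), and no single cell moved that past 1.5 times. For termination, recycling and reinitiation, 1 of 4 was higher and 2 lower in transplanted cells and 3 of 7 were higher and 2 lower in adult cells. Abce1, which splits ribosomes after termination, had 0 CPM in transplanted, 64.5 in adult and 698 in cultured cells. It was at least 303-fold lower in transplanted cells, or 0.00838 as a ratio to the floor without cultured D, and at 0.0923 in adult cells, 0.00391 without adult G and 0.235 without cultured D.

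Mitochondrial translation factors had 2 of 4 measured genes higher and 1 lower in transplanted cells, and 0 of 3 higher or lower in adult cells. Tufm, the mitochondrial counterpart of eEF1A, had 142 CPM in transplanted cells and 0 in both adult and cultured cells. It was at least 9.76-fold above the cultured floor, and at least 2.22-fold without transplanted H. Among mTOR and eIF2 phosphatase genes, 1 of 4 was higher and 2 lower in transplanted cells and 3 of 3 lower in adult cells. Rheb, the activator of mTOR, had 195 CPM in transplanted, 9.44 in adult and 53.4 in cultured cells. Its transplanted to cultured ratio of 3.65 (2.01 to 7.41) was 0.850 without transplanted D and 12.1 without cultured A, and its adult ratio of 0.177 (0.0715 to 0.442) was 0.0488 without adult B and 0.586 without cultured A. Among tRNA synthetase genes and their scaffold partners, 3 of 8 were higher and 4 lower in transplanted cells, and 6 of 14 were higher and 3 lower in adult cells. The scaffold gene Aimp1 had 481 CPM in transplanted, 182 in adult and 4.85 in cultured cells, the last from 1 count. It was higher in transplanted cells without any 1 cell, with a ratio of 99.2 (17.7 to 3925), and in adult cells its call ended without adult G. Of the selenocysteine and hypusine genes, 1 was measured in transplanted against cultured cells and met neither call.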

How the data were processed

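The deposited file holds counts per gene for each of 24 single cells, of which 8 came from each group. Per the labels' protocols, cells were sorted or picked by hand, and cDNA was amplified by PCR and cut with Tn5. The submitters' processing notes name TopHat2 2.1.0, HTSeq, DESeq2 and mm10, and the counts were not normalized as deposited. Neither strand use nor the handling of reads with several matches is given in these sources. Counts were summed by group and scaled to CPM with Python 3.11.15, numpy 2.4.6, pandas 2.3.3 and scipy 1.17.1, and drawn with matplotlib 3.10.9. Intervals are exact at 95% (Poisson for sums, conditional binomial for ratios, Clopper-Pearson for shares). Calls needed 10 counts over both groups and a 2-fold difference, with a floor of 3 counts per group. Median log2 ratios used 1 CPM as a pseudocount. Exon lengths and positions came from the GENCODE annotation of GRCm38, to which 99.3% of symbols matched, and start sites from RefSeq. The calling step was run on simulated sums with counting noise only and with known changes larger than 2-fold, scored on well-counted genes. The simulation had no spread between cells, so it does not show how calls behave when counts sit in 1 cell. Alternatives were cell weights, scaling (TMM from edgeR 4.0.16 and size factors from DESeq2 1.42.0 in R 4.3.3), count minimum, fold, pseudocount, exon length, thinning and leaving out each cell. Calls kept without any 1 cell, the Eef1a1 pattern and both sets of cultured cells left out were chosen after seeing the data. Named genes are both eEF1A genes, the 10 highest and 10 lowest called ratios of each comparison, the 3 highest per-length levels of each group and the most counted gene of each role. Eef1d, Eef1g, Eef2k, Eif1b, Eif2ak1, Eif2s3x, Eif3e, Eif3f, Eif4a2, Eif5 and Eif5b were named outside that rule, after their values were seen. The genes and lists were chosen with earlier results of these data known. Every pair of cells in a group differed by more than counting noise (lowest chi-square per degree of freedom 13.6).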

Additional observations from a re-analysis of the deposited data

Results flagged for a closer look

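The factor genes examined here are the 40 named by the rule under the processing steps, and genes described outside that rule were not examined. A cell was listed when its level of such a gene lay far above the other 7 cells of its group (Dixon's criterion at 95%), with all levels in CPM. Of 92 combinations tested, in which a group was taken with such a gene or with a summed share of the factor genes, 59 met it, all of them single genes. Chance gives about 1 in 20, but that rate assumes normally distributed values and cannot be read against these counts: a gene with counts in 1 cell only meets the criterion at any level. Of the 59, 30 had counts in 1 cell and 50 in at most 3 cells.

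Transplanted cell B stood above the other 7 for Eef1b2 at 1264 CPM, Eif2d at 201.3, Eif3a at 8.051, Eif4a1 at 8.051, Eif4e2 at 362.3 and Eif4ebp1 at 209.3. Transplanted cell D stood above the other 7 for Eif1ad at 159.8 CPM, Eif3g at 460.3, Eif3h at 677.6 and Eif4g2 at 1758. Transplanted cell E stood above the other 7 for Eif1ax at 480.2 CPM, Eif2s2 at 413.8 and Eif3k at 2677. Transplanted cell F stood above the other 7 for Eif1 at 79.28 CPM and Eif3l at 1368. Transplanted cell G stood above the other 7 for Eif2b5 at 629 CPM, Eif3b at 489.2 and Eif4e at 89.86. Transplanted cell H stood above the other 7 for Eef1e1 at 1470 CPM and Eif2s1 at 1493.

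Adult cell A stood above the other 7 for Eif1ax at 728.5 CPM and Eif3a at 263.7. Adult cell B stood above the other 7 for Eif4ebp1 at 423 CPM. Adult cell C stood above the other 7 for Eif2b3 at 166.4 CPM, Eif2s1 at 485.5, Eif2s3y at 90.16, Eif3c at 374.5 and Eif4e2 at 6.935. Adult cell D stood above the other 7 for Eef1a2 at 358.1 CPM and Eif4g1 at 156.3. Adult cell E stood above the other 7 for Eef1akmt1 at 1035 CPM and Eif3g at 777.9. Adult cell F stood above the other 7 for Eef1a1 at 1170 CPM, Eif1 at 1032, Eif2s2 at 838.4 and Eif4a3 at 18.43. Adult cell G stood above the other 7 for Eif2b1 at 139.6 CPM, Eif2b5 at 58.17 and Eif3k at 1326. Adult cell H stood above the other 7 for Eif4a1 at 4.734 CPM.

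Cultured cell A stood above the other 7 for Eif1ax at 252.4 CPM, Eif3b at 50.48, Eif4ebp1 at 101 and Eif5a2 at 1111. Cultured cell B stood above the other 7 for Eif1a at 1069 CPM, Eif2s1 at 65.8, Eif4e2 at 213.9 and Eif5a at 246.8. Cultured cell C stood above the other 7 for Eif4g1 at 422.4 CPM. Cultured cell D stood above the other 7 for Eif4a1 at 502.1 CPM. Cultured cell E stood above the other 7 for Eef2 at 1304 CPM, Eif2s3y at 931.7 and Eif4enif1 at 1118. Cultured cell F stood above the other 7 for Eif2ak4 at 1245 CPM, Eif3k at 2273, Eif3l at 5412 and Eif4a3 at 54.12. Cultured cell G stood above the other 7 for Eif1ad at 132.4 CPM. Cultured cell H stood above the other 7 for Eif2b3 at 4521 CPM.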

How the results depend on the processing

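No paired analysis was possible because the letters of the cells only name them and each group is 1 sample. The depth of the cultured cells sets a floor of 14.6 CPM, against 2.30 CPM in transplanted and 2.36 CPM in adult cells. The cause of the changes below was not tested.

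Ratios of named genes stayed within their 95% counting interval, with no change of a called direction, in 224 of 277 values against cultured cells in transplanted, 215 of 266 in adult and 147 of 169 for transplanted over adult cells. When 1 cell was left out this held for 544 of 572, 515 of 548 and 415 of 468 values of the same comparisons. Leaving out a cell without counts of a gene moves its ratio only through the total, so these numbers do not measure how many calls held. Few calls outlasted every removal, as given above. The Eef1a1 ratio of adult over cultured cells (0.0431) was 0.0816 with TMM factors, 0.0675 after thinning, 0.0245 per exon length, 0.0558 with equal cell weights, 0.0199 without cultured B, C, D and E and 0.122 without cultured F, G and H. For transplanted over cultured cells (0.000993) it was 0.00880 after thinning, at the floor. Without cultured B, C, D and E, Eef1a2, Eif1ax and Eif3k turned to 0.912, 0.874 and 0.895, and without cultured F, G and H, Eif3h and Eif3l turned to 3.83 and 7.48 with the floor applied, all transplanted over cultured.

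The median log2 ratio of factor genes, transplanted over cultured, was -0.15 with TMM, -2.47 after thinning, -1.86 per length and 0.084 without F, G and H. Over all genes it was -4.76, -6.30, -4.41 and -2.91. The adult median of factor genes was -0.26, -2.38, -1.87 and 0.97 under the same settings, and that of all genes -2.97, -5.12, -3.91 and -1.95. Transplanted over cultured, the number of higher genes was 5 at 4-fold, 16 with TMM, 1 without any 1 cell, 5 per length and 5 without B to E, and of lower genes 10 without any 1 cell and 15 without F, G and H. Adult over cultured, higher genes were 6 at 4-fold, 0 without any 1 cell, 7 per length and 6 without B to E, and lower genes 11 without any 1 cell and 16 without F, G and H. Transplanted over adult, 1 gene was higher and 5 lower without any 1 cell, and 7 were lower after thinning. Shares of all genes were not taken at 4-fold, per length or after thinning, so nothing about the factor genes is read from those numbers. For the other settings these shares are given above.

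The factor genes' share of counts was 0.363% after thinning, 0.274% per length and 0.376% with equal weights in transplanted cells, and 0.217% per length in adult cells. In cultured cells it was 1.06% after thinning, 0.794% per length, 1.05% with equal weights, 1.03% without Rn45s and Rpph1, 1.74% without B to E and 0.493% without F, G and H.

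With 1 cell left out, shares ran from 0.371% to 0.433% in transplanted, 0.294% to 0.389% in adult and 0.803% to 1.13% in cultured cells. Medians ran from -2.01 to -0.84 for transplanted over cultured, -1.83 to -0.11 for adult over cultured and -1.01 to 0.019 for transplanted over adult cells. Adult over cultured, Eef1a1 ran from 0.00111 to 0.0611 and Eef1a2 from 0.615 to 4.26. Other ranges crossed 1. Adult over cultured, they were 0.675 to 9.14 for Eif1ax, 0.00508 to 1.15 for Eif2b3, 0.274 to 2.98 for Eif3c and 0.0553 to 1.19 for Eif4g1. Transplanted over cultured, they were 0.659 to 5.95 for Eif3g, 0.437 to 22.8 for Eif3k and 0.00512 to 5.96 for Eif3l. Transplanted over adult, they were 0.212 to 4.60 for Eef1b2, 0.0184 to 3.15 for Eif1ax, 0.0553 to 148 for Eif2s1 and 0.282 to 1.59 for Eif5a.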
